A study of Saccharomyces cerevisiae BY4741 with 25 samples.

Results

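Variant calls were examined in 5 yeast genes, FLO9 (YAL063C), DAN4 (YJR151C), FIT1 (YDR534C), YMR317W and YIL169C. A call belonged to the set when the deposited lists gave 1 of these genes as its region, or as the symbol or locus of its predicted effect. The rule found 758 of 4459 calls in 9 full lists: 476 in FLO9, 118 in DAN4, 106 in YMR317W, 56 in YIL169C and 2 in FIT1. All but 4 lay inside the genes, and those 4 were downstream of YIL169C. The genes were chosen by measured values, the numbers of their calls in these lists and of those without a parental call, so such numbers are given as a description with no test. Tests were made only of the shares of alternate reads at calls that a mutant pool and the parental pool both list.

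The libraries hold whole-genome DNA of budding yeast (Saccharomyces cerevisiae, BY4741 background), grown to stationary phase in rich medium as a mixture of mating types a and alpha. The 8 mutant pools, RRC1 to RRC8, each combined clones grown from spores of backcrossed mutants, which the study isolated as mutants in which SIR2, a histone deacetylase gene, was derepressed. The titles add rrn9 to RRC1, rrn10 to RRC2, rrn5 to RRC3 and uaf30 to RRC5, all names of subunit genes of the upstream activation factor of RNA polymerase I. The strain names of RRC1 and RRC4 begin with YTT67, those of RRC2, RRC3 and RRC5 to RRC8 with YTT66. The parental pool held YTT66 and YTT67 together, so a share of reads there is an average over both strains. The sample description of RRC4 is that of the parental strains, although it is titled and named as a mutant. There was 1 library per strain, and the number of clones in a pool is not given in the sources used here. Each list holds called positions only, so the reads of a library at a position that it did not call are unknown.

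Flocculins are lectin-like adhesins of the yeast cell wall that let cells clump together. They and other wall mannoproteins carry long stretches rich in serine and threonine, to which mannose chains are attached. In FLO genes these stretches are built from tandem repeats of near-identical sequence, and related FLO genes share such repeats. FLO9 encodes a flocculin, DAN4 a wall mannoprotein that is made under anaerobic growth, and FIT1 a mannoprotein that retains siderophore-bound iron in the wall. YMR317W has no standard name, and RefSeq lists YIL169C as CSS1. The flocculin and mannoprotein label therefore rests on the names of FLO9, DAN4 and FIT1.

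Pooled over the libraries, calls in each of the 5 genes had lower median depths and scores than all other calls. They numbered 93, 88, 83, 98, 79, 57, 83 and 77 in RRC1 to RRC8 and 100 in the parental pool. That was 12.1% (RRC6) to 18.5% (RRC1) of the calls of a mutant pool and 22.4% of those of the parental pool. Among 623 genes with a call inside the gene, FLO9 had the most calls, followed by DAN4, with YMR317W next, YIL169C at rank 9 and FIT1 at rank 168. FLO1, a flocculin related to FLO9, stood between YMR317W and YIL169C with 101 calls. The median depth over all calls of a library was 47, 51, 25.5, 51, 39, 19, 40 and 39 reads in RRC1 to RRC8 and 37 reads in the parental pool, so RRC6 and RRC3 were the shallowest.

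**Figure D1:**
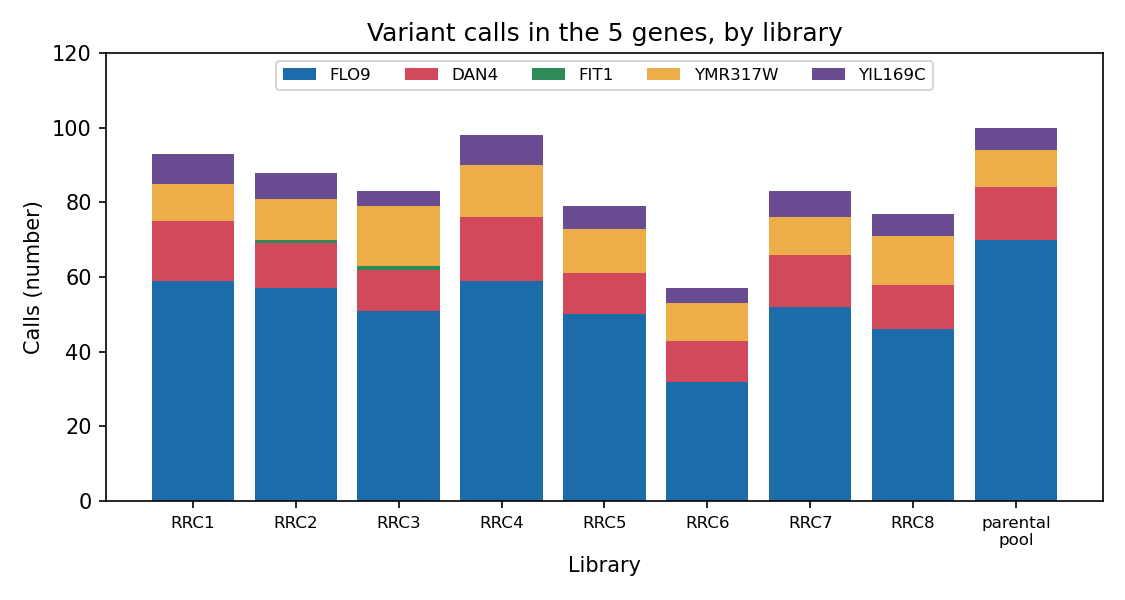
Number of variant calls in the 5 genes in each of the 8 mutant pools and in the parental pool, with 1 library per bar and 1 colour per gene. FLO9 gave most calls in every library, from 32 in RRC6 to 70 in the parental pool, and FIT1 had a call in RRC2 and in RRC3 only.

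The median depth at a call in the 5 genes was 15 reads, against 47 reads at all other calls. By gene it was 11 reads in FLO9, 28 in DAN4, 21 in YMR317W, 16.5 in YIL169C and 21 in FIT1. Divided by the median of its own library, depth had a median of 0.410 in the 5 genes and 1.20 at all other calls. Fewer than 10 reads lay under 248 of the 758 calls, whereas the share over all calls was 19.1%. FLO9 held 199 of the 248, YMR317W and YIL169C 23 each, DAN4 3 of its 118 calls and FIT1 0. The deposited score, a number given per call that reached at most 225 and whose scale is not given in the sources used here, had a median of 75 in the 5 genes and 191 elsewhere. By gene the median score was 74.1 in FLO9, 62.5 in DAN4, 124 in YMR317W, 76.75 in YIL169C and 18.82 in FIT1. In the parental pool the YMR317W median, 194.5, was above the 151 of all other calls, while those of FLO9, DAN4 and YIL169C were below it. The score reached 200 in 47 of the 758 calls, 36 of them in FLO9, 10 in YMR317W and 1 in YIL169C, against 41.2% over all calls. Calls that listed several alternate alleles numbered 31, of which FLO9 held 30 and YMR317W 1, against 3.92% over all calls.

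Many positions recurred across the libraries, above all in FLO9 and YMR317W. The 758 calls fell on 142 positions, of which 39 (27.5%) were called in all 9 lists and 30 (21.1%) in a single list. Of the 1561 positions of all other calls, 12% were in all 9 lists and 74.6% in a single list. FLO9 had 25 of its 81 positions in all 9 lists, YMR317W 9 of 22, DAN4 3 of 23, YIL169C 2 of 14 and FIT1 0 of 2. FLO9 and YMR317W thus carried the higher share in all 9 lists, while DAN4 and YIL169C were near the share elsewhere. In a single list were 10 positions of FLO9, 7 of YMR317W, 6 of DAN4, 5 of YIL169C and 2 of FIT1.

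Counted over all libraries, most calls in FLO9 and DAN4 were silent by predicted effect. Over the 5 genes, 290 of 754 coding calls changed the protein (38.5%, exact 95% interval 35 to 42%). All other coding calls did so in 1259 of 1994 cases (63.1%), and the share over all coding calls was 56.4%. FLO9 had 133 protein-changing calls of 476 (27.9%), DAN4 41 of 118 (34.7%), YMR317W 74 of 106 (69.8%) and YIL169C 40 of 52 (76.9%), while both FIT1 calls were missense. With each distinct call counted a single time, the shares were 39% in the 5 genes (62 of 159) and 66.3% elsewhere (574 of 866). FLO9 gave most of the silent ones, with 24 of 98 distinct calls protein-changing (24.5%). In DAN4 this was 11 of 23 (47.8%, exact 95% interval 26.8 to 69.4%), in YMR317W 16 of 23 (69.6%) and in YIL169C 9 of 13 (69.2%). Intervals here and below cover counting error only, since amplified reads are not independent molecules and calls of different libraries at a position are not independent.

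The distinct single-base changes also differed in where they fell within codons. In the 5 genes 104 of 153 changes (68%) hit the third base of a codon, against 370 of 891 (41.5%) in all other genes. FLO9 carried this difference, with 80 of 98 changes (81.6%) at the third base. Serine or threonine codons held 69 of the 153 changes (45.1%, exact 95% interval 37.1 to 53.3%), against 180 of 891 (20.2%) elsewhere. In DAN4 this was 14 of 22 changes (63.6%) and in FLO9 47 of 98 (48%), 40 of them at threonine, while YMR317W had 6 of 22, YIL169C 2 of 9 and FIT1 none of 2. How many serine and threonine codons each gene holds was not part of these counts.

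In FLO9 the calls covered positions 25340 to 27129 of chromosome 1, in the coordinates of the deposited lists, whose genome build is not given in the sources used here. By the deposited effects these are residues 280 to 877 of the protein. The 476 calls stood at 81 positions in 7 groups separated by more than 100 bases. FLO9 had 59, 57, 51, 59, 50, 32, 52 and 46 calls in RRC1 to RRC8 and 70 in the parental pool. The lowest count was that of RRC6, the shallowest library, and the part of depth in it was not tested.

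The highest score in FLO9 was 222, and A877S, at position 25340, was the call that had it in all 9 lists. It had 100% of 58, 64, 49, 53, 55, 29, 51 and 57 reads in RRC1 to RRC8 and 100% of 77 reads in the parental pool. It was thus present in all reads of each library, at a median depth of 1.41 times the library's own. Calls at residues 280, 818, 821, 824 and 827, which were silent where they reached 222, did so in 1 to 4 lists each. No other FLO9 call lay within 100 bases of it.

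Between residues 280 and 314, FLO9 had 17 positions, and each was called in all 9 lists. The median share of alternate reads there was 91 to 100% in the mutant pools and 96% in the parental pool. Depth was low, with a median of 5 (RRC6 and RRC7) to 21 reads (RRC2) in the mutant pools and 21 reads in the parental pool. Most of these calls were silent, and the missense ones included V297I, V309I, I312V and R313K.

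The next stretch, residues 324 to 358, had 25 called positions and fewer reads still. RRC1 to RRC8 had calls at 17, 20, 13, 21, 14, 0, 19 and 11 of them, and the parental pool had calls at 24. Median depth was 2 to 11 reads in the 7 mutant pools with calls and 8 reads in the parental pool. Where a call rested on 2 reads, both with the alternate allele, the exact 95% interval of its 100% share reached down to 15.8%.

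The downstream groups of FLO9 were sparser. I699M had 96 to 100% of 12 to 53 reads in 7 mutant pools and 100% of 32 reads in the parental pool, with RRC6 the only list without it. I519M appeared in the same 8 lists with 2 to 14 reads. The group at residues 605 to 637 had 16 calls at 6 positions, with 4 to 12 reads and scores of at most 24.3.

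Residues 752 to 827 of FLO9 held 28 positions, and here the libraries differed in which positions they called. Residues 818 to 827 had 6 positions called in all 9 lists, with median shares of 93 to 100% in the mutant pools and 97% in the parental pool. Residue 782, silent, was also called in all lists, at 53, 57, 38, 59, 56, 60, 33 and 46% in RRC1 to RRC8 and 39% in the parental pool, on 5 to 28 reads. The other positions of this group split the libraries.

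At residues 758 to 771 of FLO9 there were 7 called positions. RRC1 called 6 of them at 20 to 33% of 15 to 23 reads and RRC4 called 6 at 26 to 63% of 11 to 23 reads. RRC5 called 2, at 27% of 11 reads and 33% of 9 reads. The parental pool called 6 at 25 to 52% of 16 to 25 reads, and the other 5 mutant pools called none. Scores of these calls were 4.13 to 53, and at such depths a missing call does not show that the allele was absent. RRC1 and RRC4 are the pools whose strain names fall under YTT67, and RRC5 falls under YTT66. At the neighbouring residue 772, S772R and S772T were called in RRC1 (27% of 18 and 31% of 16 reads) and RRC4 (53% of 15 and 57% of 14 reads). Both were also called in RRC5 (44 and 33%, on 9 reads each), S772R alone in RRC8 (40% of 10 reads), and neither in the parental list.

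At residues 779 to 811 of FLO9, with 12 positions, the counts ran differently: 3, 6, 12, 3, 4, 8, 7 and 6 in RRC1 to RRC8 and 10 in the parental pool. RRC1 and RRC4 thus had the fewest calls here and RRC3 had all 12. The silent call at threonine 809 was in all 8 mutant pools, at 74, 59, 93, 77, 61, 78, 77 and 65% of 31, 27, 16, 27, 18, 14, 22 and 26 reads. The parental list had no call at that position, although it had calls at residues 795 and 811 on 38 and 34 reads. These stretches and the residue 809 call were singled out after their values were seen.

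**Figure D2:**
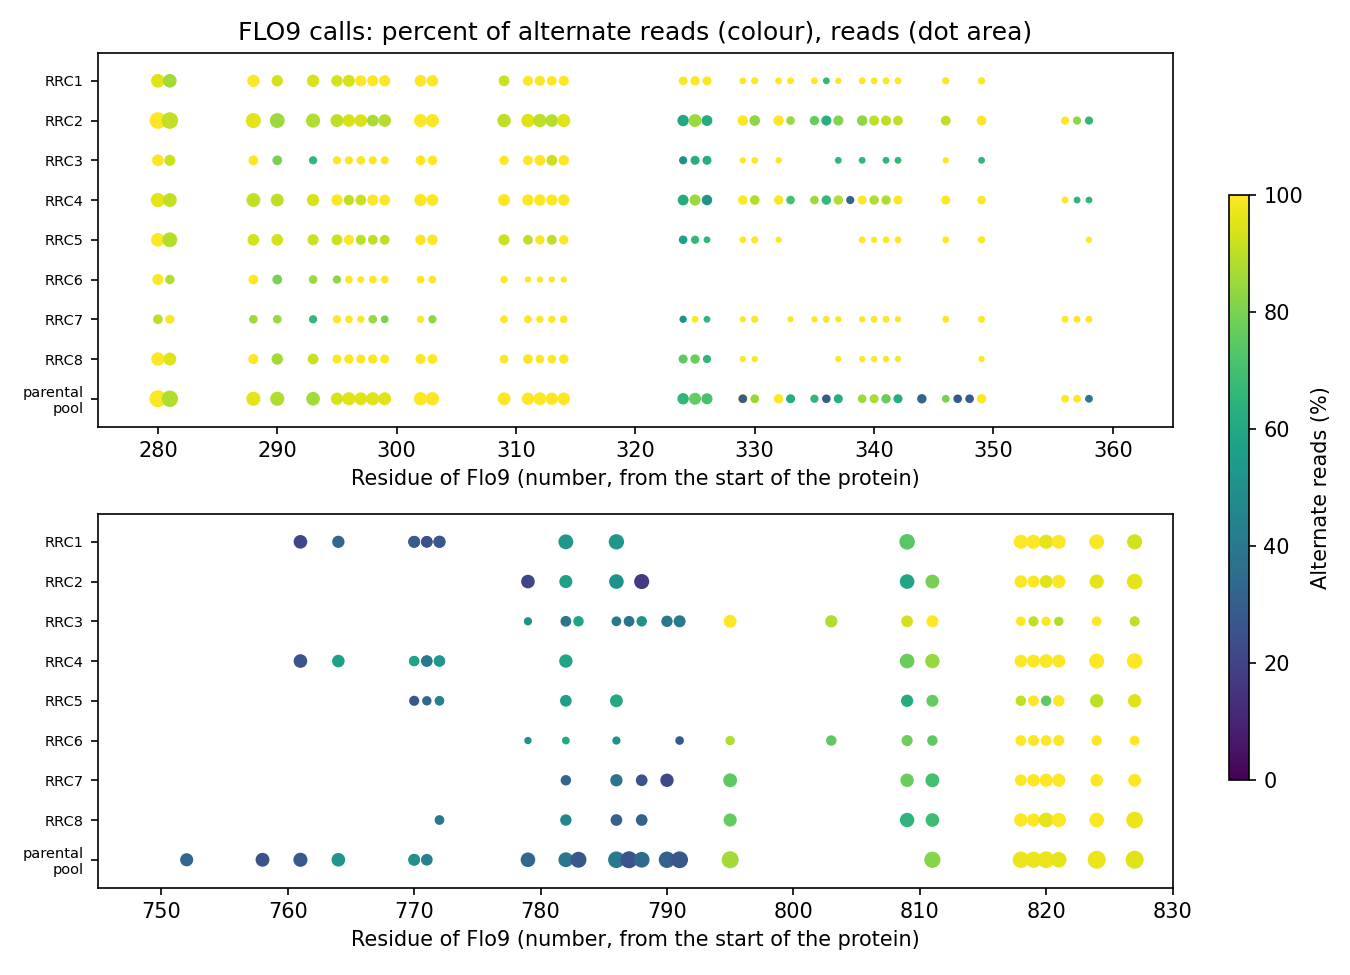
FLO9 calls at residues 280 to 358 (upper panel) and 752 to 827 (lower panel) in the 8 mutant pools and the parental pool. Each dot is a called position, its colour is the percent of reads with an alternate allele and its area grows with the number of reads. Residues 280 to 314 and 818 to 827 are filled in every row, residues 758 to 771 only in RRC1, RRC4, RRC5 and the parental pool, and residue 809 in the mutant pools only.

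The parental list alone had calls at 7 FLO9 positions. They had 25 to 100% of 4 to 24 reads and scores of 3.01 to 17.1, so all were of low score. In the other direction, 11 FLO9 positions were called in mutant pools and not in the parental list.

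In DAN4 the 118 calls stood at 23 positions, 21 of them at residues 186 to 253 (positions 714983 to 715183 of chromosome 10). No call reached 90% of reads: shares ran from 17 to 71% with a median of 34% on a median of 28 reads. Scores reached at most 194, for P216S in the parental pool. That change had 57, 43, 47, 60, 50, 71 and 35% of 35, 37, 23, 45, 18, 14 and 31 reads in RRC1, RRC2, RRC3, RRC4, RRC6, RRC7 and RRC8, against 52% of 46 reads in the parental pool. RRC5 had no such call, but had an insertion at the same residue.

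DAN4 calls in all 9 lists were those at threonine 209, threonine 214 and P225S. P225S had 23, 32, 35, 34, 23, 38, 44 and 42% of reads in RRC1 to RRC8 and 21% in the parental pool. Threonine 209, silent, had 64, 22, 33, 51, 28, 45, 50 and 23% in RRC1 to RRC8 and 33% in the parental pool. For threonine 214, also silent, the shares were 53, 33, 33, 52, 25, 57, 40 and 33% in RRC1 to RRC8 and 37% in the parental pool. RRC1, RRC4, RRC6 and RRC7 were above the parental pool at all 3 positions, whereas RRC2, RRC5 and RRC8 were below it at both threonines. The 3 lie close together, at positions 715114, 715099 and 715068, and can share reads, so they do not count as separate observations. RRC6 had only 11, 14 and 13 reads there, and no difference at these positions passed the adjusted threshold of the tests given below.

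Median shares over neighbouring DAN4 residues also differed between the pools. Over residues 200 to 216 the median share was 53, 23, 33, 51, 30.5, 45, 46 and 32% in RRC1 to RRC8 and 33% in the parental pool. RRC1, RRC4, RRC7 and the parental pool each had calls at 9 of the 10 positions of this stretch, the other pools at 4 to 7. Over residues 218 to 231 the median was 21.5, 32, 35, 32.5, 25, 33, 30 and 42% in RRC1 to RRC8 and 23% in the parental pool, so RRC1 was lowest here and highest in the stretch before it. The stretches were set after the values were seen, and neighbouring calls in them can share reads.

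**Figure D3:**
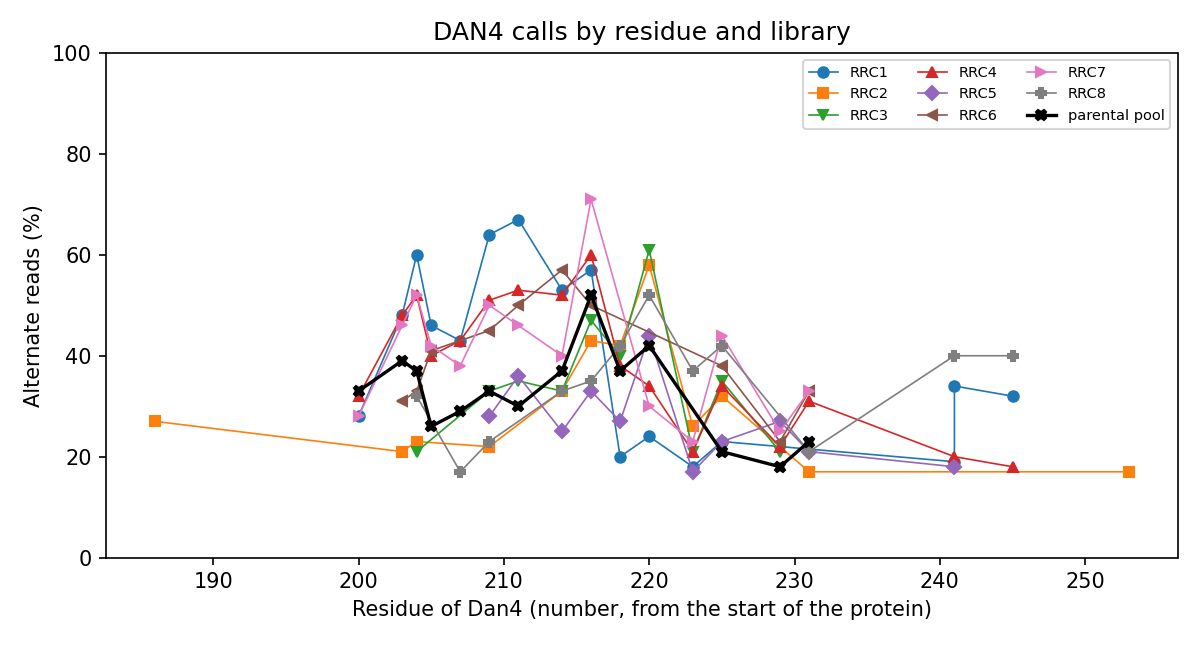
Percent of reads with an alternate allele at each DAN4 call from residue 186 to residue 253, by library, with lines joining the calls of a library. RRC1, RRC4 and RRC7 lie above the black line of the parental pool at residues 203 to 216, and RRC1 lies below it at residues 218 and 220; calls at residues 451 and 453, on 3 and 4 reads, are outside the axis.

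DAN4 had 9 positions that no parental call shared, and 6 of them were in a single mutant pool. The exception with the most pools was the silent call at threonine 223, at 18, 26, 21, 21, 17, 23 and 37% of 44, 30, 19, 52, 28, 26 and 29 reads in RRC1, RRC2, RRC3, RRC4, RRC5, RRC7 and RRC8. RRC6 and the parental pool had none there. The insertion in RRC5, at position 715093, adds 3 codons and had 33% of 6 reads with a score of 4.42. Its alleles are shown because the deposited effect of the added bases is to insert threonine and serine residues, the kinds that carry mannose in wall proteins. They are given 5′ to 3′ on the strand of the deposited alleles, opposite to the gene, with the inserted bases in capitals.
DAN4 alternate allele: agAAGTAGTCG
DAN4 reference allele: ag

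FIT1 had a missense call in each of 2 mutant pools and none in the parental list. E328A, at position 1503918 of chromosome 4, had 22% of 31 reads in RRC2 with a score of 29. E316A, at position 1503954, had 36% of 11 reads in RRC3 with a score of 8.64. The changes put the same amino acid in place of the same glutamate codon at residues 12 apart. No call of either was listed in any other library.

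YMR317W had 106 calls at 22 positions, 908174 to 908484 of chromosome 13, which are residues 271 to 374. The calls formed a block shared by all libraries, followed by scattered calls at low shares. At residues 271 to 285, 9 positions were called in all 9 lists: V271L, V271A, I272V, I272M, W278S, A279S and silent changes at residues 274, 280 and 285. The median share was 74, 85, 66, 59, 69, 66, 80 and 57% in RRC1 to RRC8 and 78% in the parental pool. RRC3 and RRC6 had medians of 6 and 5 reads in this block, against 18 to 32 reads in the other mutant pools and 37 reads in the parental pool.

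The highest score in YMR317W was 215, for the silent call at residue 280 in RRC1. That position had 71, 80, 50, 50, 63, 42, 71 and 47% of 39, 31, 8, 20, 30, 7, 21 and 23 reads in RRC1 to RRC8 and 60% of 35 reads in the parental pool. No library reached 90% there, so reads with the reference base remained in all of them. Farther along the gene, at residues 289 to 374, 13 positions had calls at 15 to 50% of reads. RRC1 to RRC8 had 1, 2, 7, 5, 3, 1, 1 and 4 calls in this stretch and the parental pool had 1. V307A was in 5 mutant pools, at 25, 37, 18, 27 and 33% of 8, 29, 27, 18 and 24 reads in RRC3, RRC4, RRC5, RRC7 and RRC8, and in no parental call.

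The 1 parental call of this stretch was a deletion of 36 bases at position 908234, which removes 12 codons in frame. It had 40% of 15 reads in RRC1 and 33% of 9 reads in RRC2, against 50% of 20 reads in the parental pool. Its alleles are printed because they show the repeat unit of the gene directly. Both are given 5′ to 3′ on the deposited strand, which is that of the gene, and the capitals mark 1 copy of the 36 deleted bases.
YMR317W reference allele: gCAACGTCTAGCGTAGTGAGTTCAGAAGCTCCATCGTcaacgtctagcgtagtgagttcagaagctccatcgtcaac
YMR317W alternate allele: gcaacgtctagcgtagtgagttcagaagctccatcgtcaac
Of the 41 bases of the reference allele that have a base 36 further on, 40 equal it. The deletion could be placed at any of 41 starts in this allele with the same outcome, so the residue given for it in the lists is 1 of several equivalent ones.

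YIL169C had 56 calls at 14 positions in 3 groups on chromosome 9. The deep group was at residues 114 to 244 (positions 25376 to 25765), on a median of 1.26 times the library's depth. The silent call at serine 171 had the highest score of the gene, 218 in the parental pool. It had 42, 36, 45, 44, 47 and 37% of 50, 44, 53, 61, 55 and 58 reads in RRC1, RRC2, RRC4, RRC5, RRC7 and RRC8, against 54% of 61 reads in the parental pool. RRC3 and RRC6, the shallowest libraries, had no call anywhere in this group, and the part of depth in that was not tested.

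D174G, 3 residues on, had 30, 38, 31, 38, 36 and 27% of 56, 60, 61, 63, 58 and 68 reads in the same 6 mutant pools and no parental call. A172T, between them, had 34, 31, 35, 42 and 26% in RRC1, RRC2, RRC4, RRC7 and RRC8, against 44% of 68 reads in the parental pool. The parental library was therefore deep within a few bases of D174G, but its own reads at that base are not in the list. D174G was singled out after its values were seen.

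The shallow group of YIL169C was at residues 941 to 974 (positions 23185 to 23282), at a median of 0.205 times the library's depth. All of its calls had 95 to 100% of reads. A frameshift at threonine 974 had 100% of 5, 9, 7, 13, 4, 6, 8 and 8 reads in RRC1 to RRC8 and 100% of 9 reads in the parental pool. K965Q had 100% of 10, 9, 14, 9, 13, 18 and 8 reads in RRC1 and in RRC3 to RRC8, 95% of 20 reads in RRC2 and 100% of 15 reads in the parental pool. Of the 17 frameshift calls, 9 were the one at residue 974 and the rest were at residues 941, 942 and 952, on 2 to 5 reads. The 4 downstream calls, at position 23082, had 100% of 5, 7, 6 and 8 reads in RRC1, RRC3, RRC5 and RRC6.

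**Figure D4:**
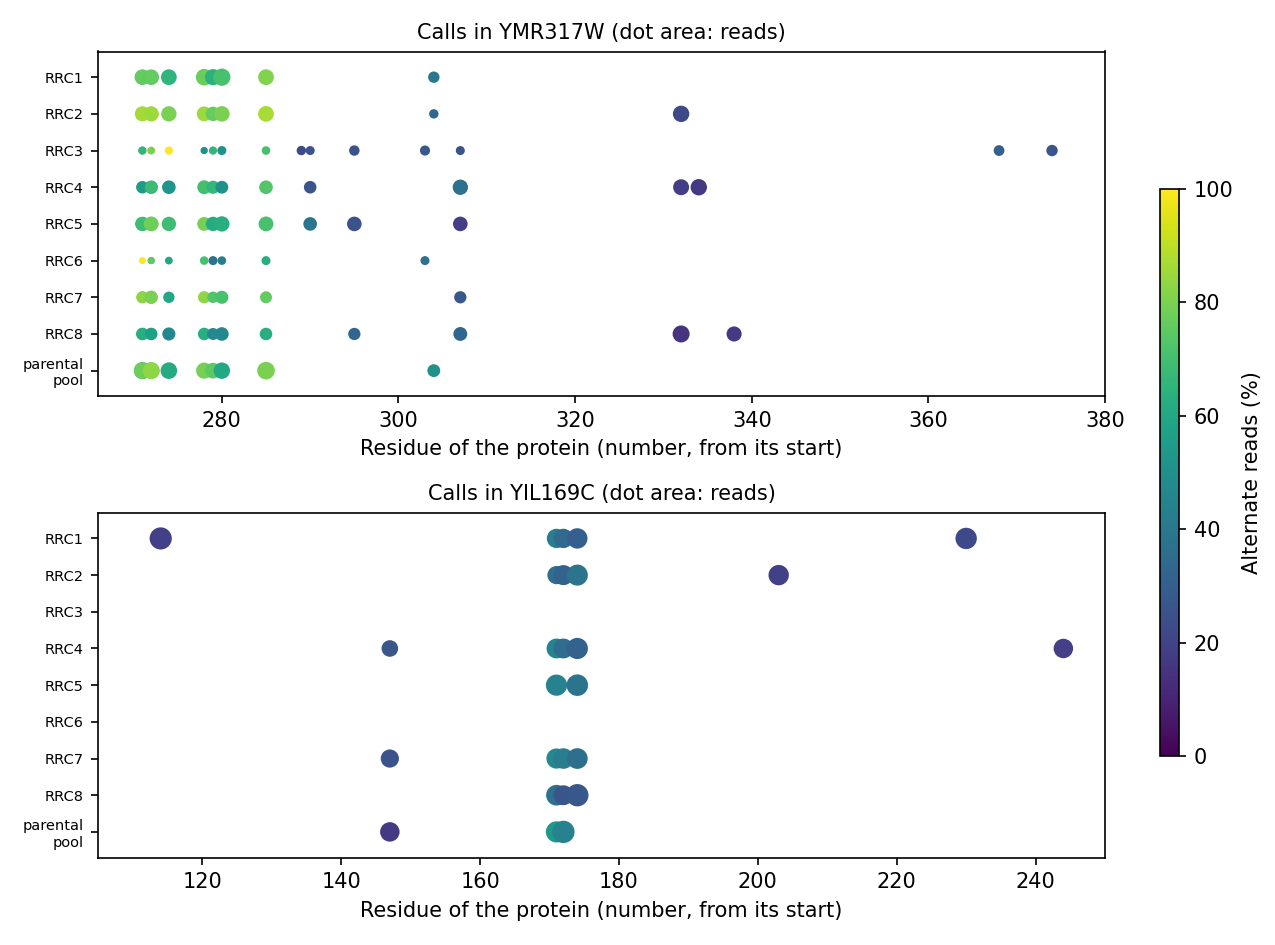
Calls in YMR317W (upper panel) and at residues 114 to 244 of YIL169C (lower panel) in the 8 mutant pools and the parental pool, with the percent of alternate reads as colour and the reads as dot area. In YMR317W the block at residues 271 to 285 is filled in every row and later calls are at 15 to 50%, and in YIL169C RRC3 and RRC6 have no dot.

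In YMR317W all pairs of identical codon changes were a multiple of 12 residues apart. In DAN4 all were a multiple of 3 residues apart but only 6 of 12 a multiple of 9. In FLO9 most pairs were at multiples of neither 3 nor 45 residues. Pairs of distinct single-base changes within a gene were sorted by whether they altered the same codon into the same codon. In YMR317W 11 of 11 such pairs were a multiple of 12 residues apart, the length of the deletion above, against 15 of 215 pairs of different changes (6.98%). Examples were V271A, V295A and V307A, and L290S, L338S and L374S. The 1 pair of FIT1, E316A and E328A, was also 12 residues apart.

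In YIL169C 2 of 2 pairs of identical changes, D174G with D230G and the silent changes at valines 147 and 203, were 56 residues apart, against 0 of 34 pairs of different changes. In DAN4 12 of 12 pairs of identical changes were a multiple of 3 residues apart, against 28.9% of pairs of different changes. Of those 12, 6 were at a multiple of 9 residues, such as P207S, P216S and P225S, against 8.72% of pairs of different changes.

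FLO9 had 144 pairs of identical changes, of which 18 (12.5%) were a multiple of 45 residues apart, against 71 of 4585 pairs of different changes (1.55%). At multiples of 3 residues there were 67 of the 144 (46.5%), against 34% of pairs of different changes. At exactly 45 residues there were 8 pairs, among them R313K with R358K, I312V with I357V and V297I with V342I. The silent changes at threonines 764 and 809 were another pair. For 147 ordered pairs of FLO9 changes at multiples of 45 residues, the alternate codon of the one was the reference codon of the other in 45 (30.6%), against 6.15% of pairs at other distances. At the spacings of the other genes this was 7 of 47 in DAN4 (14.9%, against 7.63% at other distances), 2 of 37 in YMR317W (5.41%, against 2.54%), 0 of 4 in YIL169C (against 7.35%) and 0 of 2 in FIT1. An identical codon change needs the same reference codon at both residues. In these pairs the reference codons were the same in 51 of 147 in FLO9 (34.7%, against 6.18% at other distances) and 12 of 47 in DAN4 (25.5%, against 7.12%). They were the same in 23 of 37 in YMR317W (62.2%, against 7.30%), 4 of 4 in YIL169C (against 0 of 68) and 2 of 2 in FIT1. The genes were chosen with their repeats known and the spacings after the positions were seen. Changes of a gene share its sequence, and no test was made.

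**Figure D5:**
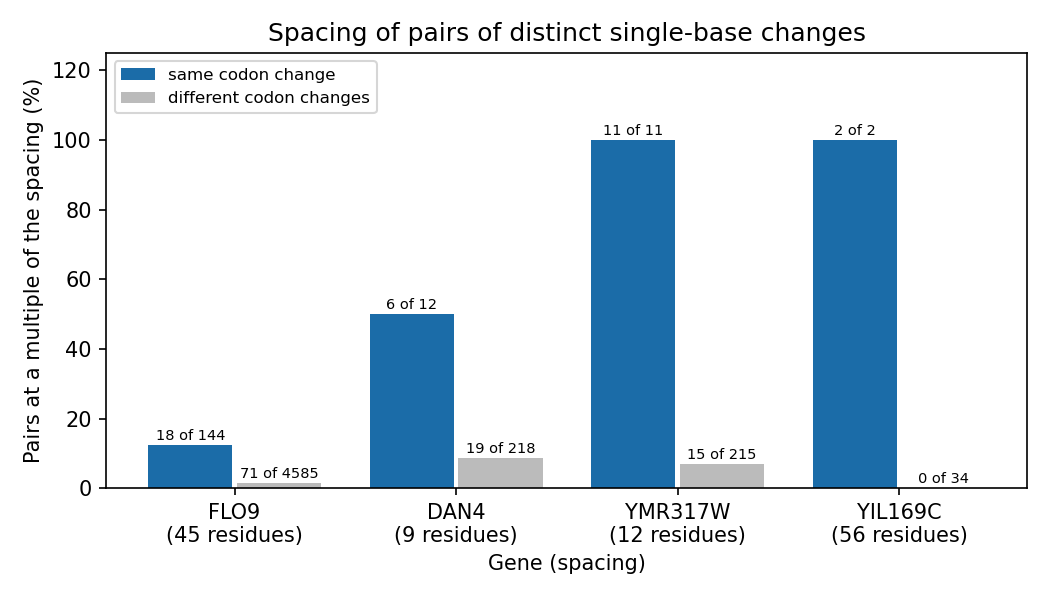
Share of pairs of distinct single-base changes whose distance is a multiple of the named spacing, for identical codon changes (blue) and different codon changes (grey) in 4 genes; the numbers above the bars give pairs at that spacing of all pairs. The blue bar is higher than the grey one in every gene, from 12.5% against 1.55% in FLO9 to 100% against 6.98% in YMR317W. The spacings were chosen after the positions were seen, and blue pairs share a reference codon, which grey pairs need not.

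Calls of the mutant pools were sorted by whether the parental list held them. A missing parental call does not show that the allele was absent from the parental strains. With at least 10 reads, 97 of 436 mutant-pool calls in the 5 genes had no parental call with the same alleles (22.2%, exact 95% interval 18.4 to 26.4%). The share over all mutant-pool calls was 41.6%, and over all calls outside the 5 genes it was 44.6% (1253 of 2807). By gene, these were 50 of 231 in FLO9, 17 of 101 in DAN4, 18 of 73 in YMR317W, 10 of 29 in YIL169C and 2 of 2 in FIT1. When any parental allele at the position counted as a match, 66 of the 436 (15.1%) remained without one, against 36.2% over all calls. That alternative took FLO9 to 19 and left the counts of the other 4 genes as they were. When any parental call within 5 bases counted, FLO9 had 11, DAN4 10, YMR317W 16, YIL169C 10 and FIT1 2. The share over all calls under that setting is not given here.

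Without a minimum of reads, 142 of 658 mutant-pool calls of the 5 genes had no identical parental call, against 1562 of 3354 elsewhere. At 49 of them, 48 in FLO9 and 1 in YMR317W, the parental pool had a call at the position that shared an alternate allele, and only the list of alleles differed. The other 93 calls were at 42 positions with no parental call. They had scores of at most 131, and 53 of them were protein-changing, against 492 of 1402 such calls elsewhere. Calls elsewhere include many noncoding ones, so these shares are not alike in kind. By gene the protein-changing ones were 10 of 31 in FLO9, 12 of 20 in DAN4, 17 of 22 in YMR317W, 12 of 18 in YIL169C and 2 of 2 in FIT1. Of these 42 positions, 3 (7.14%) were called in 6 or more mutant pools, against 7 of 1214 (0.577%) elsewhere. The 3 were those of FLO9 residue 809, DAN4 residue 223 and D174G of YIL169C. Calls at such positions add to the counts by which the genes were chosen, so this contrast is a description only.

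Calls with at least 90% of 10 or more reads and no identical parental call numbered 30 of 436 in the 5 genes. Over all mutant-pool calls with at least 10 reads they were 200 of 3243 (6.17%). The pooled share in the 5 genes was close to that, but it described no single gene. All 30 were among the 231 FLO9 calls with at least 10 reads, a larger share than that over all calls. DAN4, FIT1, YMR317W and YIL169C had none. The 30 stood at 9 positions, and 4 were protein-changing. The 4 were R313K, at position 27031, with 100% of 10 reads in RRC1, 92% of 13 in RRC3, 100% of 14 in RRC4 and 90% of 10 in RRC5. The parental pool had a call there on 100% of 18 reads, which listed both R313K and R313T. The exact 95% intervals of the 4 mutant shares had lower bounds of 69.2, 64, 76.8 and 55.5%.

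The other 26 were silent calls at residues 288, 299, 302, 795, 809, 818, 819 and 821. The parental list had a call at the same position for 29 of the 30. The exception was threonine 809 in RRC3, at 93% of 16 reads. A score of at least 200 was reached by 4 of the 30, at residues 818, 819 and 821.

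At calls that a mutant pool shared with the parental pool, the shares of alternate reads were compared with Fisher's exact test, two-sided, adjusted by the Benjamini-Hochberg method over all shared calls of a pool. None of 325 comparisons in the 5 genes passed an adjusted p of 0.05, and 3 had an unadjusted p under 0.05. Over all calls 13 of 1860 passed (0.699%). These rates are not at like depth, since calls in the 5 genes had a median of 15 reads and all other calls 47. In the 5 genes the difference of mutant minus parental share had a median of 0 and a range of -28 to 37 percentage points. Over all calls the range was -55 to 40 points. By gene the median was 0 in FLO9, 5 points in DAN4, -3 in YMR317W and -8 in YIL169C. In YMR317W all 9 differences were positive in RRC2 (1 to 20 points), and all 9 were negative in RRC4 (-23 to -7) and in RRC8 (-28 to -10), none of them past the threshold. These 9 calls lie within 45 bases and can share reads. FLO9 gave 168 of the 325 comparisons, DAN4 84, YMR317W 55 and YIL169C 18, and FIT1 gave none. Each test compares a pair of libraries and not strains, and a p above the threshold does not show that shares were equal.

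The lowest adjusted p in the 5 genes, 0.219 by Fisher's exact test, was that of threonine 211 of DAN4 in RRC1. It had 67% of 31 reads in RRC1 and 30% of 36 reads in the parental pool (Fisher's exact test, unadjusted p = 0.0033). The next was threonine 209 in the same pool, at 64% of 31 reads in RRC1 and 33% of 42 reads in the parental pool (unadjusted p = 0.0101, adjusted p = 0.447 by Fisher's exact test). In FLO9 the lowest p was at threonine 820, with 75% of 12 reads in RRC5 and 97% of 37 reads in the parental pool (Fisher's exact test, unadjusted p = 0.0408).

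Other cell-wall genes were read the same way from a list of 51 genes, all matched to a locus. Calls lay inside 11 of them, 184 in all, and 5 had 10 or more: FLO1 with 101, HKR1 with 22, HPF1 with 18, MTL1 with 16 and FLO11 with 14. FLO5, which encodes another flocculin, had 5, while TIR4, AGA1 and PIR1 had 2 each and EGT2 and WSC3 had 1 each. FIT2, FIT3 and DAN1, related to FIT1 and DAN4, had no call in any of the 9 lists. The same held for FLO10, DAN2, DAN3, CSS2 and CSS3. FLO9 alone had more calls than the 51 genes together.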

How the data were processed

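Genomic DNA of 9 yeast libraries was sequenced and variants were listed by the authors; the 16 chromatin samples of the series were not analysed here. Of the 17 deposited lists, the 9 full ones were used, and the 8 shortened ones as an alternative. Each deposited list gives position, alleles, score, count of reads, percent of reads with an alternate allele and predicted effect. The authors' percent was rounded down, and the fewest alternate reads that give it were used, which matched all 4459 calls. Bowtie 1.0.0 and SAMtools 0.1.19 are named without a role in the submitters' processing notes. Which program called the variants, with what filters and on which genome build, is not given in the sources used here.

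Members were found by region, symbol or locus, and names were matched to the RefSeq R64 gene table. All 733 residue numbers of single-base calls matched that table's gene ends. A call matched a parental one by position and both alleles, with a minimum of 10 reads. Near-fixed calls had at least 90% of reads. Shares have exact (Clopper-Pearson) 95% intervals. Fisher's exact test, applied to calls in both lists with 10 or more reads in each, used the Benjamini-Hochberg adjustment over all calls of a pool (SciPy 1.17.1, pandas 2.3.3, Python 3.11.15) and was tested on simulated data. Genes on the cell-wall list, the members, and the calls named were chosen with earlier results of these data known. By rule, single calls were named that were in all 9 lists, near-fixed without an identical parental call, or the highest in score of a gene, as was every cell-wall gene with calls, by counts; others named were chosen after their values were seen. Alternatives varied the match, the minimum of reads, the score, the lists and the share.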

Additional observations from a re-analysis of the deposited data

How the results depend on the processing

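The 97 calls in the 5 genes without an identical parental call became 49 when any parental call within 5 bases counted as a match, 51 with a minimum of 20 reads and 4 with a score of at least 200. Their share of 22.2% became 15.1% when any allele at the position matched, 11.2% within 5 bases, 18.2% with a score of at least 20 and 11.4% with a score of at least 200. When any allele matched, the share over all calls was 36.2%. For the 5-base and score settings that share is not given here, so the contrast with all calls cannot be judged under them. The 30 near-fixed calls became 9 with a minimum of 20 reads, 4 with a score of at least 200, 1 when any allele matched, and 1 when a shared alternate allele sufficed, an alternative chosen after seeing the data. Here the alternative's own construction removes the calls whose parental counterpart lists other alleles. The relative depth of 0.410 became 0.262 when the library median was taken over calls with a score of at least 200, and the median score of 75 became 119 with at least 20 reads. The cause was not tested for the other changes. No value changed direction, which says nothing of the contrast with all calls where their share is not given. The Fisher comparisons passed the threshold in 0 cases under every alternative tried, and 15 values of the main comparisons moved by less than counting error or 1.5 times. The search for repeats in the protein sequences was not run. No paired analysis was possible because each strain has 1 library and the replicate numbers in the labels belong to the chromatin samples. Depth limits RRC3 and RRC6 most, with medians of 25.5 and 19 reads, and every value at calls under 10 reads.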
